A study of Mus musculus with 16 samples.

Results

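Cell cycle and proliferation genes were followed in RNA from cells of the lamina propria, the tissue that lies beneath the epithelium of the mouse gut. The set held 38 genes of DNA replication and mitosis, taken by symbol from the 35647 genes of the table, and all 38 were found. Mice of wild-type genotype, kept germ-free before, had carried a single bacterium for 5 weeks: Bifidobacterium breve, either its wild-type strain (WT) or a Δchat strain that lacks acetylcholine production. Each strain was given to 4 mice, and cells of colon and ileum were enriched on a Percoll density gradient of 40% and 80%, so that 4 groups (colon WT, colon Δchat, ileum WT and ileum Δchat) held 4 libraries each. Every mouse thus carried one B. breve strain alone, and germ-free controls were not analysed here. The question the design puts to these genes is whether bacterial acetylcholine, or the gut segment, goes with a different level of proliferation transcripts in the immune cells of the mucosa. Age, sex and mouse strain are not given in the sources used here.

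A dividing cell passes through a fixed order of gene programmes. In late G1 the E2F factors and E-type cyclins open S phase, and the loading factors CDC6 and CDT1 place the MCM helicase, a ring of MCM2 to MCM7, on replication origins; in G2 and M the cyclins A and B with CDK1, the factor FOXM1, the Aurora and Polo kinases and the kinesin motors build and run the spindle. In the gut wall dividing cells include germinal centre B cells of lymphoid follicles, plasmablasts, activated T cells and, where epithelium is carried along, the dividing cells of the crypts. The 38 genes were therefore read beside marker lists of those cells.

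Library totals ran from 15.9 to 23.6 M (megacounts) of estimated counts, and levels below are CPM, counts per 1 M after TMM scaling over all 16 libraries. All 38 genes passed the low-count filter in every comparison. The label of immune cells was checked against markers: B cell, plasma cell, T cell and macrophage genes were present in all 16 libraries, and so were the stromal collagens, with Col3a1 at 1204 CPM or more in each of the 8 colon libraries. The mean log2 CPM of 11 stromal genes lay between 6.98 and 8.80 over the libraries, and that of 15 epithelial genes between 0.84 and 6.77. The highest epithelial value belonged to colon Δchat replicate 3, whose 3 companions had 3.19, 3.49 and 3.25. That library stands apart in many results below, which are given with and without it. In bulk RNA, fewer cells of a type and less RNA per cell cannot be told apart.

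Promoters of cell cycle genes are known to carry elements of the S phase and the mitotic programme, and 4 are printed here because the results below turn on replication genes (Mcm6, Mcm2) and mitotic genes (Mki67, Top2a). RefSeq windows of 250 bases before to 50 bases after the start (GRCm38.p6) were matched by symbol for 31 genes. Unmatched were Aurkb, Ccna2, Ccne2, Foxm1, Kif20a, Mcm4 and Tpx2. Both strands were searched for E2F elements (TTCCCGC, also TTGGCGC, further TTCGCGC and lastly TTGCCGC), for the cell cycle homology region or CHR (TTTGAA and also TTCGAA), the element to which the DREAM and MuvB complexes bind in mitotic promoters, and for the CCAAT box (CCAAT). A CHR stood in the windows of 15 of 19 G2 and M genes and of 2 of 12 G1 and S genes, against 21.7% of all genes with a window. E2F letters stood in 7 of 12 G1 and S genes and 4 of 19 G2 and M genes, against 10.9% of all genes, and a CCAAT box in 7 of 12 and 17 of 19, against 41.1%. A match describes the letters of a window and is not evidence of binding. The 250 bases before the start are given 5′ to 3′ on the strand of the gene, in lower case with every match of the searched letters in capitals, for Mcm6 (chr1:128359706-128359955, minus strand), Mcm2 (chr6:88898781-88899030, minus), Mki67 (chr7:135716380-135716629, minus) and Top2a (chr11:99024190-99024439, minus):
Mcm6: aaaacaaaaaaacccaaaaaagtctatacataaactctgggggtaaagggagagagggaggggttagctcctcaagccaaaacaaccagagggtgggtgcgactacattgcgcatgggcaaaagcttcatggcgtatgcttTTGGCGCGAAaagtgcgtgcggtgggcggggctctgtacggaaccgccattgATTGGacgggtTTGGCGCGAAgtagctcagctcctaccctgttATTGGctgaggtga
Mcm2: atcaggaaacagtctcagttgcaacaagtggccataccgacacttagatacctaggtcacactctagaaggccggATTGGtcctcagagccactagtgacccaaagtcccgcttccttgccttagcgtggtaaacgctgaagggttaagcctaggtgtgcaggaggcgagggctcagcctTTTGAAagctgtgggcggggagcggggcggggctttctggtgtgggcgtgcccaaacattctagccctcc
Mki67: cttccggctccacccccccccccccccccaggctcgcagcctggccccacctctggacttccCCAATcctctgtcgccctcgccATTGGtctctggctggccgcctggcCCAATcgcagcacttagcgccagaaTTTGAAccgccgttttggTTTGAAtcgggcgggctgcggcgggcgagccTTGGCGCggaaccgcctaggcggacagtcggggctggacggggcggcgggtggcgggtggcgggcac
Top2a: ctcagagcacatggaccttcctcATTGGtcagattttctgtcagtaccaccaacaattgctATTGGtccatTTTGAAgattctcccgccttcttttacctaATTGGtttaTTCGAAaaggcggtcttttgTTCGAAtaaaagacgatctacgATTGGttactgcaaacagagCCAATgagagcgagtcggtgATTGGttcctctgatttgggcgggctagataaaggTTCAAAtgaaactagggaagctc

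In these 250 bases Mcm6 held 4 E2F matches, 2 CCAAT boxes and no CHR, whereas Top2a held 4 CHR matches, 6 CCAAT boxes and no E2F match. Mki67 had 2 CHR matches, 3 CCAAT boxes and 1 E2F match. Mcm2 had 1 CHR, 1 CCAAT box and no E2F match. The 2 E2F matches of the Cdt1 window lay after its start and are not printed.

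Levels were compared between genes only per kilobase of annotated exon. That length joins the exons of all transcripts of a gene and can exceed the length of the transcript expressed, so the order is approximate. Pcna, the sliding clamp of the replication fork, was the most abundant by this measure, at 94.5 CPM per kb averaged over 16 libraries. Cdt1 came next at 22.2 CPM per kb, and the 6 MCM genes followed, from Mcm3 at 17.3 to Mcm2 at 8.17 CPM per kb. All G2 and M genes lay lower: Top2a, which untangles DNA, stood at 5.02, Mki67, the gene of the Ki-67 antigen, at 4.91, Ccna2 at 2.61, Cdk1 at 1.102 and the kinetochore gene Cenpf, lowest of the 38, at 0.311 CPM per kb.

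In colon, no member passed the test between Δchat and WT mice. Among all 14660 genes tested with edgeR, 0.00682% were called at a Benjamini-Hochberg adjusted p under 0.05. The 38 members divided evenly, 19 estimated higher and 19 lower in Δchat, around a median of -0.00 on the log2 scale (all genes, 0.01). Unadjusted p under 0.05 was reached by 4 members, all lower, and by 13.3% of all genes.

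The members with the smallest p values belonged to the S phase side. Mcm6, a subunit of the helicase ring, read 76.8, 67.3, 62.1 and 61.2 CPM in colon WT against 48.8, 54.2, 56.3 and 49.5 CPM in colon Δchat. All 4 Δchat libraries lay below all 4 WT libraries, yet the log2 fold change of -0.34 ± 0.10 (SE) had an adjusted p of 0.313 with edgeR. DESeq2 gave -0.35 with an adjusted p of 0.0467, the sole member called by that tool. The share of all genes that DESeq2 called in this comparison is not given here. Rrm2, the regulated subunit of ribonucleotide reductase, which supplies deoxynucleotides, read 17.5, 17.7, 14.8 and 11.1 CPM in WT against 8.82, 10.3, 12.6 and 9.58 CPM in Δchat. Its groups overlapped, and its log2 fold change of -0.55 ± 0.18 was the lowest among the members (adjusted p = 0.327). Mcm5 was at -0.31 ± 0.12 (adjusted p = 0.335) and the E-type cyclin gene Ccne2 at -0.36 ± 0.16 (adjusted p = 0.372).

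The other loading and helicase genes leaned the same way without passing: Mcm2 at -0.27 ± 0.13, Mcm3 at -0.19 ± 0.10, Mcm4 at -0.30 ± 0.14, Mcm7 at -0.10 ± 0.10, Cdc6 at -0.39 ± 0.27 and Cdt1 at -0.01 ± 0.20. All 8 genes of this role were estimated lower, with a median of -0.28, beside 7189 of all 14660 genes. The sign of Cdt1 differed in 8 of 20 alternatives. Ccne1, the partner of CDK2 at the G1 exit, had values of 3.01, 4.00, 3.12 and 3.05 CPM in WT and 2.43, 2.39, 2.92 and 1.86 CPM in Δchat. Its groups did not overlap either, and the estimate was -0.44 ± 0.22 (adjusted p = 0.413). E2f1, the transcription factor that drives these genes, stood at 0.01 ± 0.14, and Pcna at 0.04 ± 0.09. At the other end Tyms, thymidylate synthase, had the highest estimate at 0.42 ± 0.27 (adjusted p = 0.523).

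Many mitotic genes were spread widely among the colon Δchat libraries, with 1 library far above the others. Mki67 read 53.1, 57.7, 41.5 and 46.0 CPM in colon WT and 36.1, 41.2, 70.7 and 32.2 CPM in colon Δchat. Ccna2, the cyclin of S phase and G2, read 15.4, 12.3, 8.87 and 6.71 CPM in WT and 8.29, 7.93, 19.2 and 8.92 CPM in Δchat. For Ccnb1, the cyclin of mitotic entry, the values were 10.1, 7.91, 5.95 and 5.36 CPM against 3.75, 4.79, 10.5 and 4.18 CPM. In each of these genes replicate 3 was the highest of all 8 colon libraries, far above its 3 companions. Cdk1, the kinase that these cyclins activate, read 4.24, 4.34, 9.47 and 3.88 CPM in Δchat against 5.31, 4.99, 4.95 and 2.99 CPM in WT. The same library was the lowest of the 8 in Mcm2, at 45.6 CPM, in Cdt1, at 58.8 CPM, and in Pcna, at 183 CPM.

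None of the other mitotic genes passed in colon either. Among the mitotic cyclins and their partners, 4 of 5 were estimated higher (median 0.07), with Ccnb2 at 0.07 ± 0.31 and Foxm1 at 0.12 ± 0.14. Of the 6 checkpoint kinases and passenger genes 5 were estimated higher (median 0.05): the Polo kinase Plk1 stood at 0.22 ± 0.35, the Aurora kinases Aurka and Aurkb at 0.07 ± 0.21 and 0.22 ± 0.30, Bub1 at 0.02 ± 0.36 and Birc5, survivin, at 0.04 ± 0.27. Of the 9 spindle motor and microtubule genes 5 were estimated higher (median 0.03), from Cenpf at -0.26 ± 0.34 to Prc1 at 0.32 ± 0.29, with Tpx2 at 0.06 ± 0.33 and Nusap1 at 0.03 ± 0.30. Cdc20 and Ube2c, which work with the anaphase-promoting complex, were both at 0.05, with standard errors of 0.25 and 0.29.

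**Figure D1:**
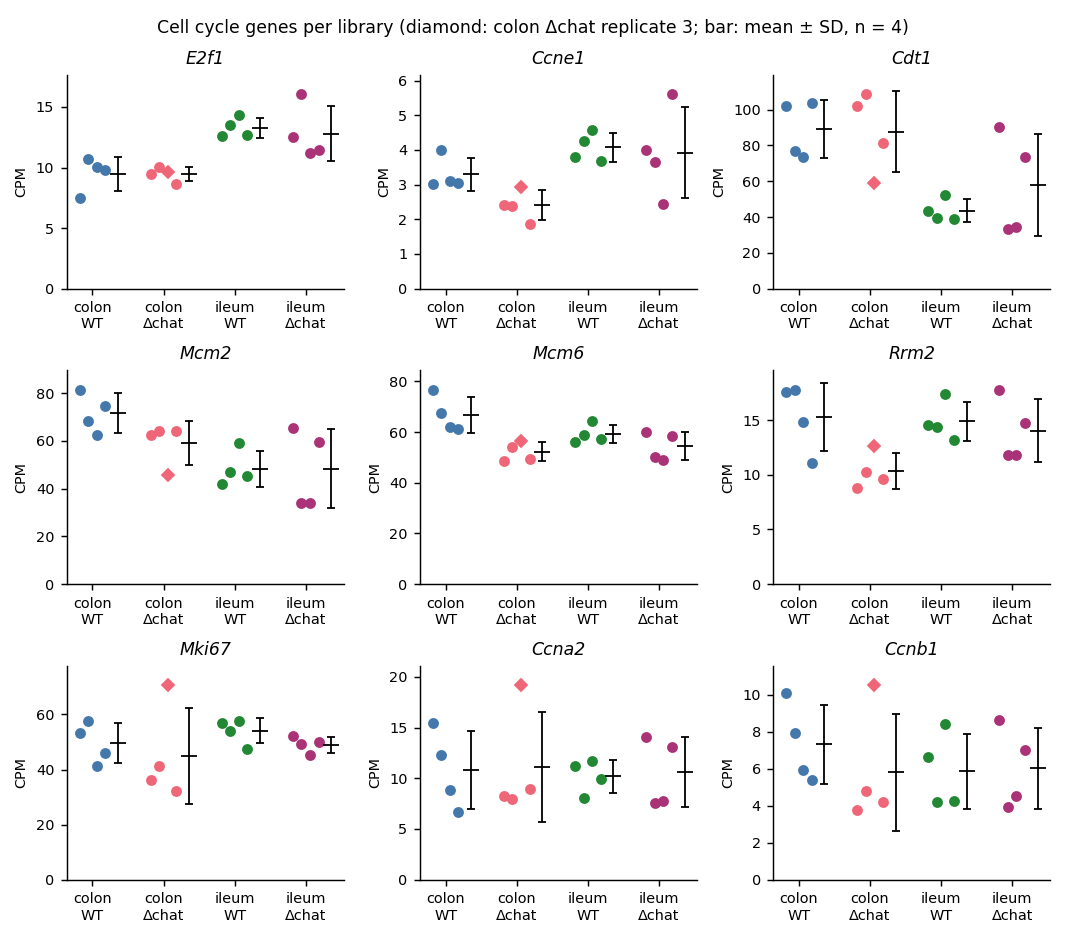
CPM of 9 cell cycle genes in each of the 16 libraries by group (points; the diamond is colon Δchat replicate 3), with the mean ± SD of the 4 libraries of a group. The diamond is the highest colon point for Mki67 (70.7 CPM), Ccna2 (19.2 CPM) and Ccnb1 (10.5 CPM) and the lowest for Mcm2 (45.6 CPM) and Cdt1 (58.8 CPM).

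Colon Δchat replicate 3 was the highest of the 8 colon libraries in Mki67, Ccna2, Ccnb1 and Cdk1. Leaving it out must therefore lower their Δchat estimates. Without this library, most estimates of the mitotic genes lay below 0. Of the 38 members 33 were then lower in Δchat and 5 higher, around a median of -0.28 against -0.01 over all genes, and 13 members, all lower, had an unadjusted p under 0.05, as did 12.2% of all 14818 genes of that fit (955 higher and 846 lower). None was called. The smallest p values belonged to Bub1b, a spindle checkpoint kinase (log2 fold change -0.53 ± 0.13, adjusted p = 0.256), Mcm6 (-0.39 ± 0.10, adjusted p = 0.264), Rrm2 (-0.68 ± 0.18, adjusted p = 0.264) and Cenpe, a kinetochore motor (-0.50 ± 0.14, adjusted p = 0.269). Ccnb1 moved from -0.31 ± 0.37 to -0.79 ± 0.24, Mki67 from -0.12 ± 0.25 to -0.44 ± 0.13, Top2a from -0.23 ± 0.25 to -0.47 ± 0.20 and Hmmr, a spindle assembly gene, from -0.01 ± 0.45 to -0.68 ± 0.26. The 5 members above 0 without it were Cdt1, Pcna, Tyms, Foxm1 and Kif23. With limma-voom and quality weights, which give a deviating library less weight, the median was -0.24 with 8 members higher and 30 lower, again none called.

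**Figure D2:**
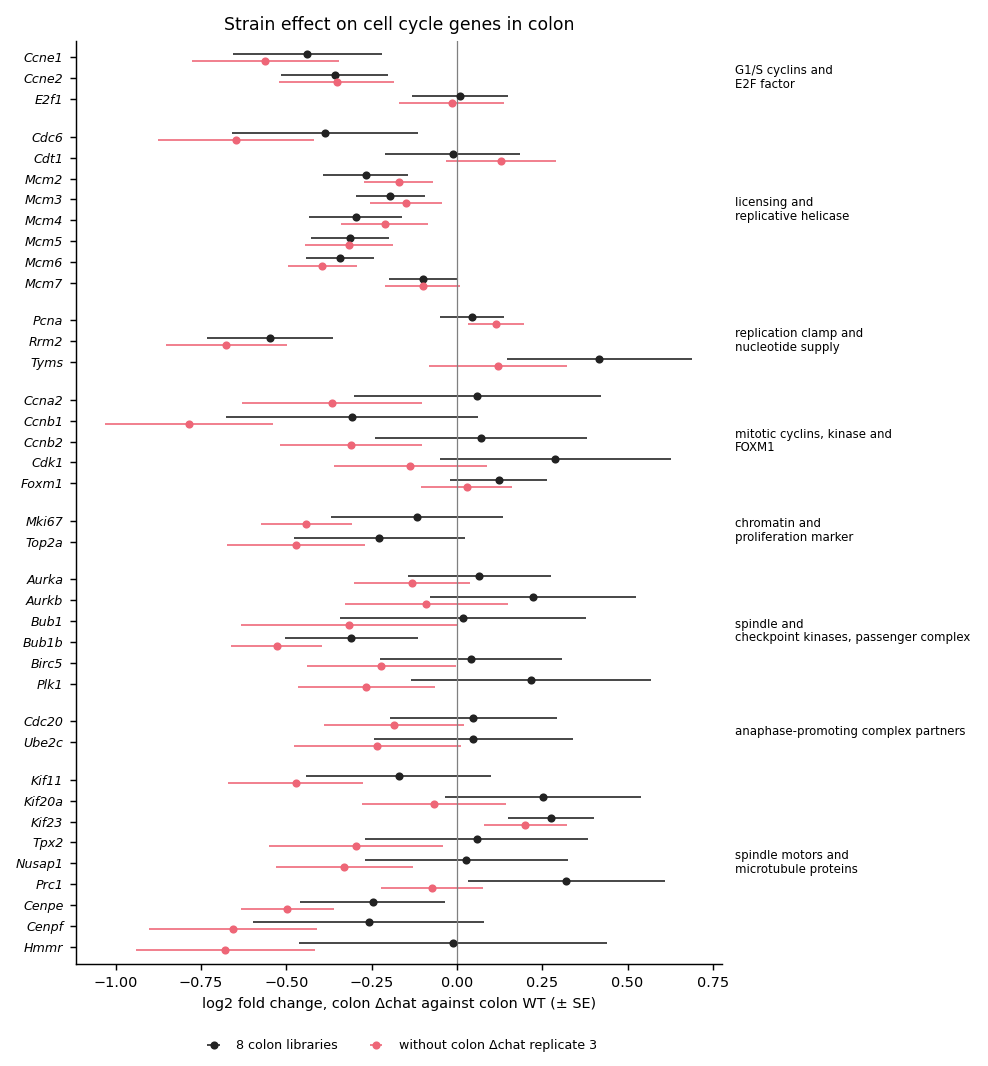
Log2 fold change (± SE) of the 38 genes in colon Δchat against colon WT, with all 8 colon libraries (black) and without colon Δchat replicate 3 (pink), grouped by role. The 6 MCM genes lie below 0 in both fits, whereas Ccna2, Cdk1, Plk1 and Tpx2 lie right of 0 in black and left of it in pink.

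Markers of other cells also had unequal levels in the colon groups, none of them called. All 10 germinal centre genes had lower estimates with Δchat (median -1.18 on the log2 scale, no gene called): Rgs13, a regulator of G protein signalling, stood at 6.22 ± 3.72 CPM (SD, n = 4) in WT and 0.564 ± 0.238 CPM in Δchat. The germinal centre list ranged from 3.41 to 4.15 mean log2 CPM in WT and from 2.0005 to 2.49 in Δchat. Resting B cell genes were estimated lower in 9 of 9 (median -0.54) and plasma cell genes in 9 of 9 (median -0.93), while macrophage genes were estimated higher in 10 of 10 (median 0.76) and epithelial genes in 14 of 14 tested (median 3.11). Without colon Δchat replicate 3 the epithelial median was 1.14, with 14 of 14 still estimated higher and none called, and the resting B cell median was -0.41. Epcam, an epithelial adhesion gene, read 259 CPM in colon Δchat replicate 3 and 22.8 CPM in the lowest library of that group, and Lgr5, of crypt stem cells, stood at 0.895 ± 0.321 CPM in WT and 1.082 ± 0.468 CPM in Δchat. The part of these cells in the estimates of the members was tested only by fits with a list mean as a covariate. With the epithelial mean in the model, 33 members were lower and 5 higher, with a median of -0.40 and none called, and the median of the 8 loading and helicase genes was -0.01. With the germinal centre mean, 28 members were lower and 10 higher, again none called, but 6 of the 8 loading and helicase genes were then estimated higher (median 0.36). The list means of the strains do not overlap in colon for germinal centre, plasma cell (6.54 to 7.16 in WT and 5.86 to 6.19 in Δchat) or epithelial genes (0.84 to 2.97 and 3.19 to 6.77), so none of the 3 lists can be told apart from the strain there.

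**Figure D3:**
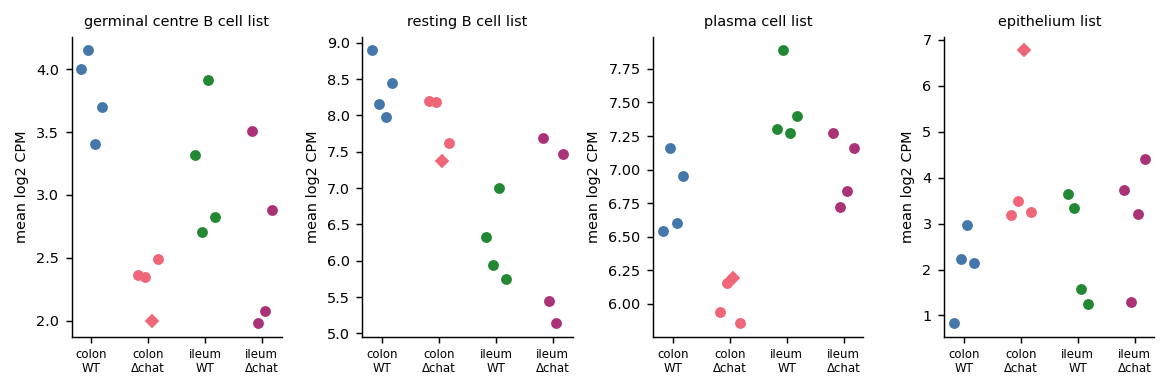
Mean log2 CPM of the germinal centre B cell, resting B cell, plasma cell and epithelium marker lists in each library by group (points; the diamond is colon Δchat replicate 3). The germinal centre list lies between 2.0005 and 2.49 in colon Δchat, below all colon WT libraries, and the diamond reaches 6.77 in the epithelium list.

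In ileum no member passed the test between Δchat and WT mice, where 0.0207% of all 14496 genes tested were called. Estimates were higher for 16 members and lower for 22, with a median log2 fold change of -0.07 (all genes, 0.01), and no member reached an unadjusted p under 0.05, as 10.9% of all genes did. Mki67 had the smallest p: its values of 57.0, 53.9, 57.5 and 47.6 CPM in ileum WT and 52.1, 49.1, 45.1 and 50.1 CPM in ileum Δchat overlapped, and its log2 fold change was -0.16 ± 0.08 (adjusted p = 0.503). The highest estimate was that of Kif20a, a motor of cytokinesis, at 0.45 ± 0.25 (adjusted p = 0.547), and the lowest that of Prc1, a bundler of spindle microtubules, at -0.30 ± 0.17 (adjusted p = 0.566). Kif11, the motor that separates spindle poles, followed at -0.23 ± 0.13 (adjusted p = 0.568). Mcm6 was at -0.14 ± 0.09, Mcm5 at -0.19 ± 0.16, Rrm2 at -0.11 ± 0.15, Ccne1 at -0.08 ± 0.25 and Pcna at 0.02 ± 0.06.

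Ileum Δchat split within itself. Some replication and mitotic genes were higher in replicates 1 and 4 than in replicates 2 and 3: Cdt1 read 90.5 and 73.4 CPM in the former and 33.4 and 34.7 CPM in the latter, and Mcm2 65.3 and 59.6 against 34.1 and 34.1 CPM. Ccna2 divided in the same manner, with 14.1 and 13.1 against 7.52 and 7.71 CPM, as did Aurka, with 9.94 and 7.37 against 5.67 and 4.67 CPM. The resting B cell list mean was 7.69 and 7.46 log2 CPM in replicates 1 and 4 and 5.45 and 5.14 in replicates 2 and 3, and the germinal centre list mean 3.51 and 2.88 against 1.98 and 2.08. The macrophage list ran the other way, at 6.13 and 5.82 against 7.88 and 6.81, and the epithelial list was at 3.72 and 4.42 against 1.30 and 3.21. The part of these lists in the split was not tested. Ileum WT, by contrast, kept Cdt1 between 38.8 and 52.5 CPM. Not all mitotic genes divided in this manner: Kif11, Kif23, Prc1 and Hmmr were lowest in ileum Δchat replicate 1, at 15.2, 16.3, 8.30 and 2.55 CPM. Pcna did not share the split, at 239, 233, 241 and 239 CPM, nor did Cdc6, at 6.60, 4.58, 6.30 and 6.17 CPM, E2f1, whose highest value was in replicate 2, or Tyms, which was high in replicate 1 alone, at 11.8 CPM against 7.74 to 8.01 CPM.

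No member passed the test of a difference in the strain effect between the tissues (0.0592% of 15198 genes were called in this interaction). A higher strain estimate in ileum than in colon was found for 8037 of all 15198 genes. Every one of the 8 loading and helicase genes had one, with a median difference of 0.21, but no member passed. The smallest p values were those of Rrm2 (log2 difference 0.48 ± 0.25, adjusted p = 0.637), Mcm6 (0.24 ± 0.13, adjusted p = 0.642), Prc1 (-0.58 ± 0.34, the lowest, adjusted p = 0.648) and Bub1b (0.42 ± 0.25, adjusted p = 0.651), and the highest estimate was that of Cdc6 at 0.51 ± 0.32 (adjusted p = 0.653).

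Between ileum and colon some members did differ, in a background where many genes did. With WT B. breve, 28.8% of 15198 genes were called, and 3 of 38 members: E2f1 was higher in ileum, and Cdt1 and Mcm2 were lower. Estimates were higher for 15 and lower for 23, with a median of -0.08 (all genes, -0.04). Colon and ileum libraries with 1 number are taken as 1 mouse, from their library names, and differences within mice are given too.

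E2f1 read 7.45, 10.7, 10.02 and 9.76 CPM in colon WT and 12.6, 13.5, 14.3 and 12.7 CPM in ileum WT. The groups did not overlap, and ileum was higher in 4 of 4 mice, by 0.75, 0.33, 0.51 and 0.37 on the log2 scale. The log2 fold change of 0.48 ± 0.13 passed (adjusted p = 0.0151), as it did in 17 of 20 alternatives, the exceptions being the covariates of germinal centre, plasma cell and resting B cell genes, with adjusted p values of 0.0609, 0.138 and 0.339. With WT, the plasma cell and resting B cell list means do not overlap between colon and ileum. Neither of these lists can therefore be told apart from the tissue there.

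Cdt1, the loading factor that licenses origins, showed the largest change of the 3, in the other direction. Its values were 102, 76.7, 73.6 and 104 CPM in colon WT and 43.5, 39.6, 52.5 and 38.8 CPM in ileum WT. All ileum libraries lay below all colon libraries. The log2 fold change was -1.03 ± 0.29 (adjusted p = 0.0184), and ileum was lower in 4 of 4 mice. Without colon WT replicate 1 the adjusted p was 0.0592, and without ileum WT replicate 4 it was 0.0520. Mcm2 read 81.5, 68.4, 62.3 and 74.5 CPM in colon against 42.2, 46.8, 59.1 and 45.2 CPM in ileum, which did not overlap (log2 fold change -0.57 ± 0.20, adjusted p = 0.0478). Its call stood in 5 of 20 alternatives and was lost without any 1 of 7 of the 8 libraries. Both genes sit beside B cell markers: all 9 resting B cell genes were called lower in ileum, with a median of -2.12, among them Cd79a at 587 ± 146 CPM in colon and 210 ± 43.0 CPM in ileum. With the germinal centre mean as a covariate in edgeR, Cdt1 stood at -0.58 (adjusted p = 0.0827) and Mcm2 at -0.24 (adjusted p = 0.256). With Δchat B. breve that covariate gave -0.93 for Cdt1 (adjusted p = 0.0059) and -0.51 for Mcm2 (adjusted p = 0.0142). With WT and the resting B cell mean as a covariate, the estimate of Cdt1 was 0.15 (adjusted p = 0.686) and that of Mcm2 0.22 (adjusted p = 0.405). No member was called in that fit, an alternative added after the data were seen. The resting B cell list means of colon WT and ileum WT do not overlap, however, so this list cannot be told apart from the tissue there. Whether B cell content accounts for the lower Cdt1 and Mcm2 is therefore not decided by that fit.

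Other members came near the threshold. Prc1 had the highest estimate, with 8.43, 7.05, 7.35 and 7.73 CPM in colon WT and 13.9, 13.03, 11.03 and 9.90 CPM in ileum WT, a log2 fold change of 0.65 ± 0.24 (adjusted p = 0.0566). Cenpe was at -0.58 ± 0.21 (adjusted p = 0.0533). The remaining helicase genes were all estimated lower in ileum, from Mcm4 at -0.39 ± 0.17 and Mcm5 at -0.38 ± 0.14 to Mcm6 at -0.18 ± 0.09. Mki67 at 0.12 ± 0.19, Top2a at -0.14 ± 0.23, Ccna2 at -0.08 ± 0.32, Ccnb1 at -0.32 ± 0.36, Cdk1 at 0.32 ± 0.28 and Foxm1 at -0.18 ± 0.15 differed between tissues by less than 2 standard errors.

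**Figure D4:**
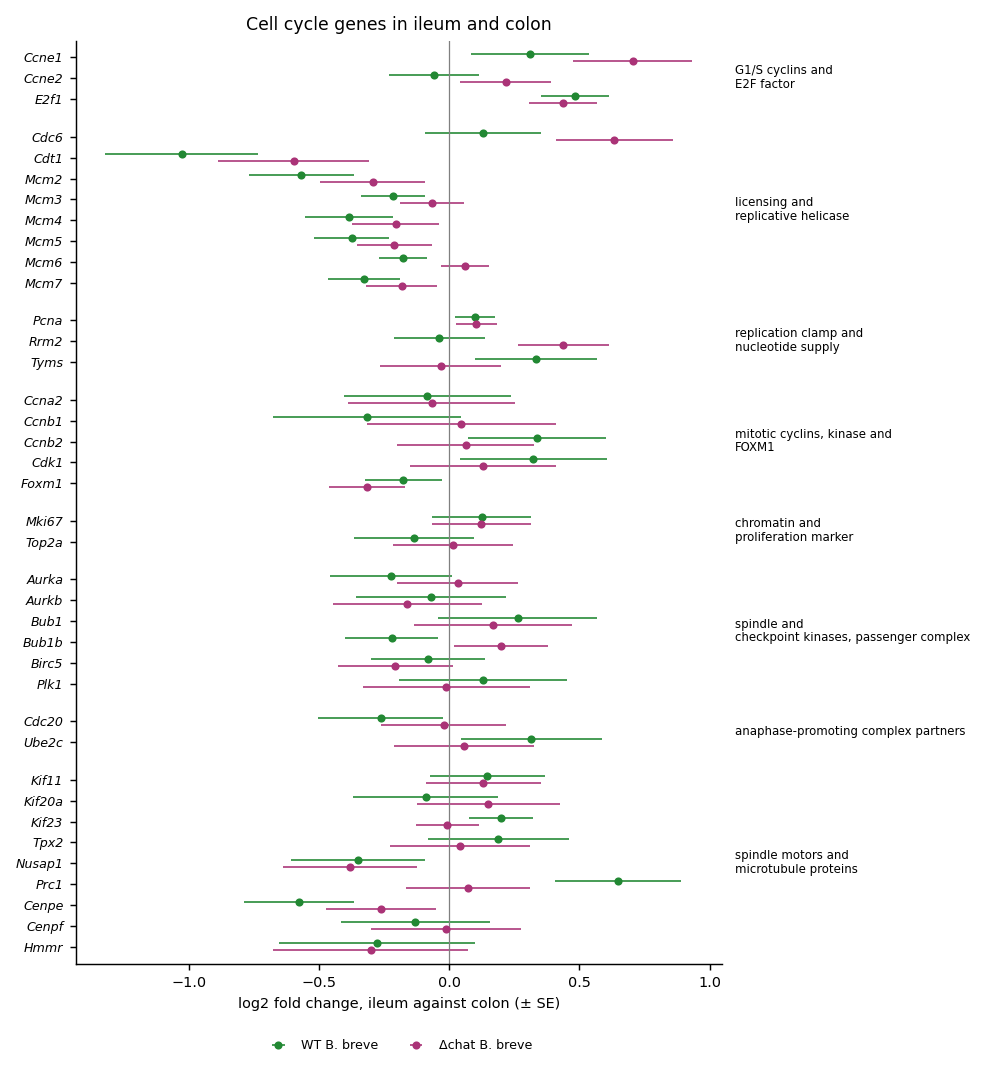
Log2 fold change (± SE) of the 38 genes in ileum against colon with WT B. breve (green) and Δchat B. breve (purple), grouped by role. E2f1 lies right of 0 with both strains (0.48 and 0.44), Cdt1 lies farthest left with both (-1.03 and -0.60), and most mitotic genes lie near 0.

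With Δchat B. breve, 13.3% of all genes were called between the tissues and 1 member, E2f1, again higher in ileum. It read 9.49, 10.01, 9.64 and 8.67 CPM in colon and 12.5, 16.1, 11.2 and 11.5 CPM in ileum, without overlap, and was higher in ileum in 4 of 4 mice. The log2 fold change was 0.44 ± 0.13 (adjusted p = 0.0405), and with the mouse as a block the adjusted p was 0.0504. Ccne1 had the highest estimate, 0.71 ± 0.23 (adjusted p = 0.0546), from 2.40 ± 0.432 CPM in colon to 3.92 ± 1.31 CPM in ileum. Cdt1 again had the lowest, -0.60 ± 0.29 (adjusted p = 0.190), and was lower in ileum in 4 of 4 mice. Members were higher in 20 and lower in 18 cases, with a median of 0.02 (all genes, -0.02).

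Leaving out colon Δchat replicate 3 changed these calls. In that edgeR fit 28.4% of 15341 genes had an unadjusted p under 0.05. The share of all genes called in it, and in the other fits without 1 library, is not given here. Without colon Δchat replicate 3 Mki67 was higher in ileum at 0.42 ± 0.11 (adjusted p = 0.0314), Ccne1 at 0.80 ± 0.24 (adjusted p = 0.0461) and Cdc6 at 0.87 ± 0.20 (adjusted p = 0.0162), while E2f1 had an adjusted p of 0.0588, and the median over members was 0.27. Of the other libraries, leaving out any 1 of colon Δchat replicates 1, 2 and 4 or ileum Δchat replicate 2 also ended the call of E2f1, with adjusted p values between 0.0514 and 0.143. Without ileum Δchat replicate 1 Cdt1 was called lower (-0.88, adjusted p = 0.0428), and without ileum Δchat replicate 3 Ccne1 was called higher (0.87, adjusted p = 0.0157). The test of the difference between strains in the tissue effect is the interaction given above, in which E2f1 stood at -0.05 ± 0.19 and Cdt1 at 0.43 ± 0.41.

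Across the 16 libraries the members did not vary as 1 block, though MCM and mitotic genes varied more alike without colon Δchat replicate 3. Deviations from the group means were correlated between genes over the 16 libraries, as a description, since the genes share library, depth and cell mixture. The 6 MCM genes had a median Pearson r of 0.80 over 15 pairs and the 24 G2 and M genes 0.73 over 276 pairs, whereas MCM genes with G2 and M genes had 0.36 over 144 pairs. Without colon Δchat replicate 3 these medians were 0.84, 0.61 and 0.53. Cdt1 had r = 0.89 with the MCM mean and 0.11 with the mitotic mean, and without that library 0.89 and 0.49. Cdc6, its partner in loading, had r = 0.22 and 0.85, and 0.42 and 0.78 without it. Rrm2, of nucleotide supply, had 0.54 with the MCM mean and 0.83 with the mitotic mean (0.67 and 0.85 without it), and Tyms 0.18 and 0.78 (0.38 and 0.64). Mcm6 had 0.71 with the MCM mean and 0.77 with the mitotic mean (0.83 and 0.82). A gene was left out of the mean it was set against. Nearest the mitotic mean were Top2a (r = 0.94), Cdk1 (0.94), Ccnb1 (0.93), Tpx2 (0.93) and Ccna2 (0.93), and Mki67 itself had 0.85. Without colon Δchat replicate 3 these were 0.95, 0.89, 0.91, 0.89, 0.90 and 0.73. Pcna (r = -0.76 with the mitotic mean, -0.51 without that library) and E2f1 (-0.19 and -0.29) had values below 0, and Kif23 was the mitotic gene with the lowest value, 0.38 (0.25 without it).

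**Figure D5:**
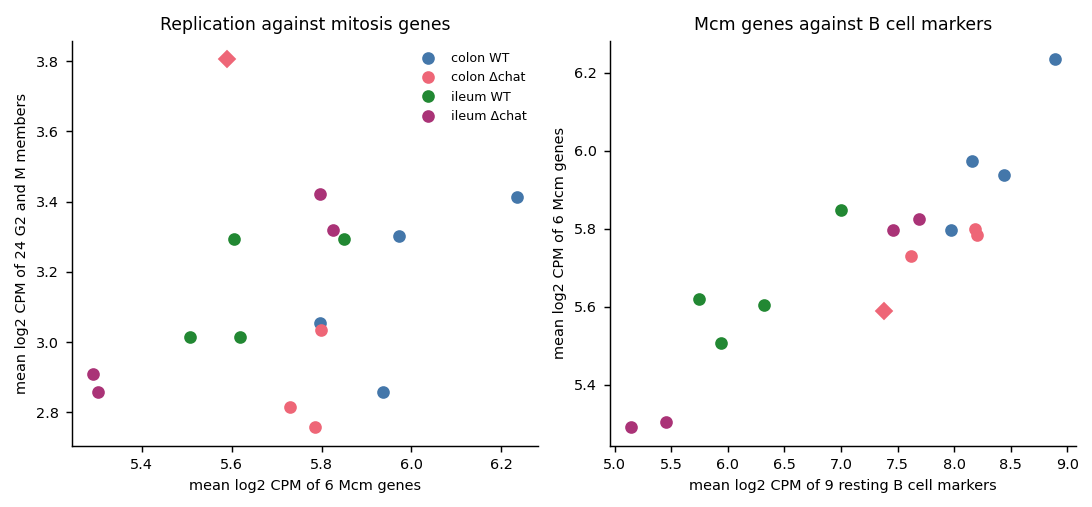
Left, mean log2 CPM of 24 G2 and M genes against that of the 6 MCM genes in each library; right, the MCM mean against the mean of 9 resting B cell markers (points by group; the diamond is colon Δchat replicate 3). On the left the diamond is the highest point of the mitotic mean with a low MCM mean, and on the right the library with the highest B cell mean (8.89) also has the highest MCM mean (6.23).

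The relation to cell content was read gene by gene within each tissue, over 8 libraries, in 380 correlations of 38 members with 5 marker lists (exact permutation of the libraries, Benjamini-Hochberg over all 380). The resting B cell list was added to these correlations after the data were seen, and with the planned lists no relation passed. The relation that passed was that of Cdt1 with resting B cell genes in ileum, with Pearson r = 0.96 (exact permutation p = 7.4e-05, adjusted p = 0.0283) and Spearman rho = 0.98 (exact permutation p = 0.000397, adjusted p = 0.0503). Its r was 0.98 with strain means removed and 0.97 without the 2 libraries farthest from the median of the list, ileum Δchat replicates 1 and 4. These last values allow 576 and 720 arrangements of the libraries, so few that a single relation could not pass over 380. In ileum the median r over the 38 members was 0.75 with resting B cell genes and 0.64 with germinal centre genes, and it was 0.31 with epithelial genes. Without the 2 libraries farthest from the median of each list these were 0.77, 0.63 and 0.06. With plasma cell and crypt epithelium genes the medians were 0.30 and 0.33, and 0.44 and -0.002 without the 2 farthest libraries. Mcm5 had r = 0.94 and rho = 0.88 with germinal centre genes there (exact permutation, adjusted p = 0.0589 and 0.184).

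Colon gave another order. The germinal centre means of its strains form separate clusters, so that with this list values are given with strain means removed: the median r was 0.56 for the 8 loading and helicase genes and -0.17 for the 24 G2 and M genes. With resting B cell genes the loading and helicase genes had a median r of 0.82 and the G2 and M genes -0.21. Without the 2 libraries farthest from the median of that list, colon WT replicate 1 and colon Δchat replicate 3, these were 0.59 and 0.12, so that the sign of the G2 and M genes rests on those libraries. With the epithelial list, whose strain ranges do not overlap either, the medians were -0.70 and 0.38, and -0.68 and 0.60 with strain means removed. Mcm2 (r = -0.98, rho = -0.76) and Mcm4 (r = -0.96, rho = -0.86) had the strongest negative values named here, with adjusted p values of 0.0589 for both r and of 0.249 and 0.202 for rho (exact permutation). With strain means removed r was -0.97 for Mcm2 and -0.93 for Mcm4. Without the 2 farthest libraries, again colon WT replicate 1 and colon Δchat replicate 3, r was -0.83 for Mcm2 and -0.88 for Mcm4, while the median of the G2 and M genes changed sign to -0.26. The positive values of mitotic genes with epithelium in colon therefore rest on those libraries. For Mki67, r with the epithelial list was 0.31 with all 8 colon libraries, 0.69 with strain means removed and -0.76 without those 2. Olfm4 of the crypt epithelium list read 0.164, 0, 0 and 5.42 CPM in colon WT. In colon Δchat it read 3.44, 0, 0 and 0.202 CPM. The weight of this floor gene in the colon list mean was not tested. With crypt epithelium genes the medians of loading and helicase genes and of G2 and M genes were -0.72 and -0.06. They were -0.14 and -0.70 without the 2 libraries farthest for that list. With plasma cell genes, whose strain ranges do not overlap, they were -0.21 and 0.24 with strain means removed.

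Beyond the 38 members, a further 153 genes of the cell cycle were listed by function. In colon, 152 of them were tested between strains and none was called, 60 being estimated higher and 92 lower in Δchat. Their 50 DNA replication and repair genes were estimated lower in 44 cases (median -0.16), beside 35 of 71 genes of mitosis and cytokinesis (median 0.01). Smallest in p were the chromatin protein gene Hmgb2 at -0.41 ± 0.12 (adjusted p = 0.313), Iqgap3 at 1.04 ± 0.30 (adjusted p = 0.313) and the thymidine kinase Tk1 at -0.51 ± 0.16 (adjusted p = 0.322). In ileum none of the 153 was called, the smallest p values being those of the lamin Lmnb1 at -0.38 ± 0.08 (adjusted p = 0.183), the CDK1 inhibitor kinase Wee1 at -0.46 ± 0.12 (adjusted p = 0.230) and the G1 kinase Cdk6 at -0.31 ± 0.09 (adjusted p = 0.279).

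Between ileum and colon some of these genes were called. With WT, 10 of the 153 were called higher in ileum and 16 lower, where 28.8% of all genes were called. Of the 3 D-type cyclins, which take the growth signal to the G1 kinases, 2 were among the higher ones and Ccnd3, at 0.06 ± 0.08, was not called: Ccnd1 stood at 1.12 ± 0.15 (adjusted p = 0.000219) and Ccnd2 at 0.48 ± 0.10 (adjusted p = 0.00375). With them rose Pole2, a subunit of DNA polymerase epsilon, at 0.97 ± 0.17 (adjusted p = 0.00155), and the antiproliferative gene Btg2 at 0.58 ± 0.12 (adjusted p = 0.00428). Lower in ileum were Cenpa, the centromeric histone, at -1.52 ± 0.30 (adjusted p = 0.00312), the kinetochore scaffold Knl1 at -0.87 ± 0.18 (adjusted p = 0.00345), the checkpoint gene Mad2l1 at -0.78 ± 0.17 (adjusted p = 0.00487) and the CDK inhibitor Cdkn1b at -0.38 ± 0.09 (adjusted p = 0.00899). With Δchat, where 13.3% of all genes were called, 5 were called higher, led by Pole2 at 1.25 ± 0.17 (adjusted p = 0.000582), Ccnd1 at 0.90 ± 0.14 (adjusted p = 0.00127), Rad51ap1 at 1.009 ± 0.25 (adjusted p = 0.0142) and Ccnd2 at 0.38 ± 0.10 (adjusted p = 0.0184), and 3 lower, Depdc1a at -0.93 ± 0.27 (adjusted p = 0.0317), Gadd45a at -0.65 ± 0.20 (adjusted p = 0.0475) and the centriole kinase Plk4 at -0.47 ± 0.15 (adjusted p = 0.0498). Ccnd1 read 35.5 to 43.6 CPM in colon WT and 73.5 to 99.6 CPM in ileum WT, and 43.1 to 50.5 CPM against 68.2 to 110 CPM with Δchat, without overlap in either strain. In the interaction none of the 153 was called, with Btg2 at -0.51 ± 0.17 (adjusted p = 0.594), Cdkn2b at -2.50 ± 0.99 (adjusted p = 0.617) and Dnmt1 at 0.38 ± 0.17 (adjusted p = 0.637) smallest in p.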

How the data were processed

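RNA was sequenced from 16 libraries, 4 each of colon and ileum lamina propria cells of mice colonized with WT or Δchat B. breve. The authors deposited estimated counts per gene (expected counts), which the submitters' processing notes tie to Salmon 1.4.0, cutadapt 5.0 and the build GRCm39. Fractional values made up 34.8 to 40.7% per library, and all were rounded to whole counts for the tests. Groups were taken from the sample titles. The 38 genes and all lists were chosen with earlier results of these data known. The text names 11 members always, up to 12 called members of a comparison (or the 4 of smallest p), its highest and lowest member, up to 4 called other cell cycle genes per direction (or 3 of smallest p) and, of the marker lists, the 2 most abundant genes and Rgs13, Epcam and Lgr5; a further gene of that rule is not reported here. Other members are described by role, and Cenpe, Hmmr and Aurka as examples after their values were seen.

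Counts were filtered with filterByExpr, scaled by TMM and fitted in R 4.3.3 with the robust quasi-likelihood test of edgeR 4.0.16, 2-sided, and p-values were adjusted by Benjamini-Hochberg across every tested gene, with calls at 0.05. Strains were compared in fits of 8 libraries, and tissues and the interaction in 1 fit of 16. That fit of 16 held no term for the mouse, so its p-values leave the pairing of colon and ileum out. Log2 CPM for list means and correlations had a prior count of 2. The fits were tested on simulated data. The alternatives were RLE factors, no filter, a filter of 1 CPM in 4 libraries, DESeq2 1.42.0, limma 3.58.1 (voom with quality weights), removal of 387 immunoglobulin genes, list means as covariates, replicate blocks, other sets of libraries in the fit and each library left out. The resting B cell list, as covariate and in the correlations, Spearman's rho as a count, and marker counts and correlations among members without colon Δchat replicate 3 were added after seeing the data. Exon lengths for levels per kb came from another build (GRCm38), and gene positions were not used.

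Chi-square per degree of freedom between replicates was at least 25.4, so no library was a copy. Colon and ileum libraries of a strain share a mouse number in their library names, and the design gives 4 mice per group, so same-numbered libraries were taken as the same mouse. Their deviations correlated at -0.06, 0.07, -0.05 and -0.04 in WT and at 0.22, 0.27, 0.19 and -0.18 in Δchat. Numbers do not pair mice across strains. Mice are the replicates, and p-values measure the spread between these libraries.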

Additional observations from a re-analysis of the deposited data

Results flagged for a closer look

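Within groups of 4 libraries, a highest or lowest value was singled out where its gap to the nearest other was large for its range (Dixon's 95% critical value). Of 184 groups of gene or list values tested, 13 met this, and chance gives about 9.2. Colon Δchat replicate 3 held 6 of the 11 member values: Ccna2 at 19.2 CPM (others 7.93 to 8.92), Ccnb1 at 10.5 CPM (others 3.75 to 4.79), Cdk1 at 9.47 CPM (others 3.88 to 4.34), Cenpe at 15.1 CPM (others 8.78 to 9.04) and Hmmr at 9.06 CPM (others 2.38 to 3.02) were far above the rest of their group, and Mcm2 at 45.6 CPM (others 62.6 to 64.3) was far below. The same library had the high epithelium list mean of 6.77 log2 CPM (others 3.19 to 3.49). In colon WT replicate 4, Pcna was high at 231.6 CPM while Cdk1 at 2.99 CPM and Tyms at 5.02 CPM were low. Ccne1 was high in colon WT replicate 2 at 4.00 CPM, and Tyms in ileum Δchat replicate 1 at 11.8 CPM. The macrophage list mean was low in ileum WT replicate 2, at 6.31 log2 CPM (others 6.70 to 6.73). The part of cell content in these values was not tested.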

How the results depend on the processing

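No member was called in the strain comparison of ileum or in the interaction under any alternative run, and in colon 1 was under DESeq2 (Mcm6). The 3 calls of ileum against colon with WT became 5 with DESeq2, 6 with limma-voom, 6 with the 8 libraries of that strain alone, 1 with the plasma cell covariate and 0 with the germinal centre or the resting B cell covariate, under which Cdt1 (0.15) and Mcm2 (0.22) changed sign. Leaving out 1 library gave 1 to 3. The plasma cell means of colon and ileum do not overlap with either strain, nor do the resting B cell means with WT. Those covariates cannot be told apart from the tissue there. With Δchat the 1 call became 0 without a filter on low counts, with the plasma cell covariate or with the 8 libraries of that strain, 2 with DESeq2, the epithelium covariate or the resting B cell covariate, 4 with limma-voom and 6 with the germinal centre covariate, and leaving out 1 library gave 0 to 3. These were often other genes: E2f1, the 1 call, stood in 8 of 20 alternatives and was not called with limma-voom (adjusted p = 0.0631) or the epithelium (0.0797) or resting B cell (0.187) covariate, and 5 of the 6 calls with the germinal centre covariate were of genes lower in ileum. The cause of these changes was not tested. The share of all genes called in each alternative fit is not given here, so these counts cannot be set against a background. Blocking on the mouse as replicate block gave 3 calls with WT and 0 with Δchat, and blocking on the replicate number across strains, which does not pair mice, gave 0 in both tissues. Of the correlations, 1 passed, with the resting B cell list added after the data were seen, and 0 passed by Spearman's rho. The 0 with strain means removed and the 0 without the 2 farthest libraries say nothing of stability. With 576 and 720 arrangements a single relation cannot pass over 380. Over members and alternatives, 3501 estimates kept direction and side of the threshold, 33 gained and 32 lost a call, 2 changed sign as above, and 498 estimates not called in either fit changed sign. With 4 libraries per group, changes of the sizes estimated in colon could not be told from the spread between mice.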

Other observations

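The most abundant genes of the marker lists gave further measures of what the libraries held (mean ± SD, n = 4). Of the germinal centre list, Bcl6 averaged 64.1 ± 7.74 CPM with WT and 53.1 ± 5.78 CPM with Δchat in colon, and Neil1 86.6 ± 21.5 and 58.2 ± 14.3 CPM. Both are also expressed outside germinal centres. Xbp1, a factor of plasma cells, was at 477 ± 63.1 CPM in colon WT, 331 ± 15.4 CPM in colon Δchat, 822 ± 128 CPM in ileum WT and 574 ± 89.6 CPM in ileum Δchat. Jchain, the joining chain of polymeric antibodies, averaged 8372 ± 2620.2 CPM with WT and 3608 ± 509.9 CPM with Δchat in colon. The B cell factor Pax5 averaged 479 ± 129 CPM in WT colon against 115 ± 44.8 CPM in WT ileum. The macrophage genes Csf1r (78.8 ± 8.90 CPM in colon WT and 426 ± 86.9 CPM in ileum WT) and C1qa (61.2 ± 10.5 and 289 ± 52.3 CPM) and the T cell genes Cd28 (81.0 ± 13.6 and 143 ± 29.0 CPM) and Lck (58.1 ± 9.92 and 92.2 ± 13.9 CPM) had higher means in ileum. Epithelial Krt8 and Lgals4 averaged 28.7 ± 21.6 and 19.7 ± 9.72 CPM in colon WT. The crypt genes Slc12a2 and Olfm4 stood at 66.1 ± 17.5 and 54.1 ± 49.2 CPM in ileum WT. Olfm4 was at 0 CPM in 4 of the 16 libraries, all of them from colon. Stromal Col1a1 and Col3a1 had their lowest means in ileum Δchat, at 745 ± 728 and 707 ± 642 CPM.

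The lists beside the tissue comparison are a measure of its background. With WT, 9 of 10 macrophage genes, 6 of 9 T cell genes and 5 of 9 plasma cell genes were called higher in ileum and 9 of 9 resting B cell genes lower. With Δchat 9, 6 and 7 were called higher and 0 of 9 resting B cell genes lower. All 9 resting B cell genes were still estimated lower with Δchat (median -1.10), 4 of them with an unadjusted p under 0.05 in edgeR. The T cell gene called lower with WT was Cd2, named after its values were seen, at 94.1 ± 21.5 CPM in colon and 52.4 ± 8.58 CPM in ileum. Of the 10 germinal centre genes 1 was called higher and 2 lower with WT, and 2 higher and 0 lower with Δchat. The difference between strains in these counts was not tested. Gene by gene, the interaction called none of the macrophage, T cell, plasma cell, resting B cell and germinal centre genes.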
